A study of Mus musculus with 2 samples.

Results

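Levels of 34 junction and transport genes of the blood-brain barrier were taken by gene symbol from the 32285 genes listed in both deposited matrices. They comprise 8 junction and adhesion genes, 14 solute carriers, 3 efflux pumps, 2 endocytic or signalling receptors, 5 transcription factors and Wnt-responsive genes, and 2 genes of caveolae and diaphragms. Their levels were compared between cell classes, between the arterial, capillary and venous parts of the endothelium, and between 2 single-cell RNA-seq libraries of mouse brain. Both hosts carried a graft of KR158, a mouse glioblastoma line, and both had the genotype Cx3cr1 CreER/+, in which a tamoxifen-inducible Cre recombinase is expressed from the locus of Cx3cr1, a gene of microglia and other myeloid cells. The control host was Plxnb2 fl/+, a heterozygote that the sample title calls WT, and the conditional knockout (cKO) host was Plxnb2 fl/fl. The dissociated tissue came from around the injection site; tamoxifen at 100 mg/kg was begun 3 days ahead of the graft and continued until 8 weeks after it, when tissue was collected. The labels give neither the ages of the hosts nor whether a library pooled animals. Each group is 1 library, so there is no replicate error and no test between the libraries. Intervals given below are 95% and cover counting error only. Endothelial cells are not the cell type that the Cre driver targets.

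Brain endothelial cells are sealed to each other by tight junctions, which block passage between the cells, and carry few vesicles. Nutrients therefore cross by dedicated transporters, and many drugs are returned to the blood by ATP-driven efflux pumps. This state is induced and kept by Wnt and norrin ligands from neural cells acting through β-catenin, and by pericytes. Capillaries and small veins carry much of the nutrient transport, while arteries conduct flow.

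The sequences just before the start sites of 5 members are shown because the results turn on these genes. Slc16a1, Tfrc and Slc7a1 had lower levels in the arterial part, Mfsd2a in the venous part, and Cldn5 was close to level along the tree. Each line gives the 250 bases before a RefSeq start site on the strand of the gene, 5′ to 3′ (build GRCm38.p6). Capitals mark GGGCGG, a GC-box core bound by Sp1, or its reverse complement CCGCCC.
Slc16a1, plus strand, chr3:104638414-104638663: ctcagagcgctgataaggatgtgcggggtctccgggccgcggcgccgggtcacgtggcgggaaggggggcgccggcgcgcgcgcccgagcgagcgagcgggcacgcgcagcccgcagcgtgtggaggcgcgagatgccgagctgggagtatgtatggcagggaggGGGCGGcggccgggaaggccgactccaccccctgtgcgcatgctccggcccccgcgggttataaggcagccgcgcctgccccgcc
Tfrc, plus strand, chr16:32608646-32608895: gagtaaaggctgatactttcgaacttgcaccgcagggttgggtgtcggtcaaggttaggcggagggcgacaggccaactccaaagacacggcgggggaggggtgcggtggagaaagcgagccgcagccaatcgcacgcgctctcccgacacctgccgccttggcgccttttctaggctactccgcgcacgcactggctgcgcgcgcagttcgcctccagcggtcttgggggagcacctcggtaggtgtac
Slc7a1, minus strand, chr5:148399905-148400154: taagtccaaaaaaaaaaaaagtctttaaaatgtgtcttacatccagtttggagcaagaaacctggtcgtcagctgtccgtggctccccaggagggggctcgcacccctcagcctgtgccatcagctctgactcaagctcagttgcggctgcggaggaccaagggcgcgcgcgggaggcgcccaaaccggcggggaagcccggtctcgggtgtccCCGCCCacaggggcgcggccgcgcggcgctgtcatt
Mfsd2a, minus strand, chr4:122961189-122961438: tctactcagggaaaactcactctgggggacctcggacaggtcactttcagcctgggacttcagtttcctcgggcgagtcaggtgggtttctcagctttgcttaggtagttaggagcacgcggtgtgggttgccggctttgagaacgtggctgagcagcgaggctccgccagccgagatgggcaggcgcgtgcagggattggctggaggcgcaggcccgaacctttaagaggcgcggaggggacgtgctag
Cldn5, plus strand, chr16:18776597-18776846: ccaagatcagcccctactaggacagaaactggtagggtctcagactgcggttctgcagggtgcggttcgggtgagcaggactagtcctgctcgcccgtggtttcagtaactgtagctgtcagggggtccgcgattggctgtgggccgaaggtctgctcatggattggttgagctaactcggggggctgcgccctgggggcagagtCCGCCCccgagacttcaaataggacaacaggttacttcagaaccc
GC made up 76.4% of the bases before Slc16a1, against a median of 52.4% over all windows of the table. GC stood at 64.8% for the Tfrc window shown, 62.4% for Slc7a1, 61.6% for Mfsd2a and 59.6% for Cldn5. The RefSeq table held 23 of the 34 members, with 36 start sites. The letters GGGCGG, read on both strands, occurred in 20 of these 36 windows and in 32.7% of the 32851 windows of all genes. GGAAGT, an ETS-type core, occurred in 7 of 36 windows against 19.7% of all. A second, overlapping Tfrc window, not shown, holds 1 match of GGGCGG and 1 of GGAAGT, while the window shown holds 0 of each. ATCAAAG, a TCF/LEF-type site, occurred in 1 of 36, before an inner start site of Slc7a1 not shown here, against 3.21% of all. ACAATGG, a SOX-type site, occurred in 0 of 36 against 3.02%. Each motif was counted on its own, and none of the letters was searched outside these windows.

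After filters, 7645 control and 5206 cKO cells were kept, with medians of 4626 and 5917 unique molecular identifiers (UMIs, distinct tagged RNA molecules) per cell, and 8 kept barcodes occurred in both libraries. Plxnb2 stood at 199 counts per 1e6 UMIs (CPM) in control microglia-like cells and 38.6 in cKO microglia-like cells. The labels do not say whether the counted 3′ ends lie in the deleted part, so this value does not by itself check the deletion. In endothelial-like cells Plxnb2 stood at 10.5 CPM (7.88 to 13.6) in the control library and 8.57 CPM (6.74 to 10.7) in the cKO library, intervals that overlap. The endothelial-like class held 688 control and 882 cKO cells, named from 14 markers that exclude the 34 genes, among them Pecam1 at 664 and 689 CPM. These cells' libraries differed beside the members. Summed markers of choroid plexus, led by Ttr, stood at 957 CPM in control and 2.06 CPM in cKO endothelial-like cells, and choroid plexus-like cells numbered 358 and 4. Summed microglial markers stood at 251 and 114 CPM, astrocyte markers at 1542 and 1318 CPM, pericyte markers at 787 and 886 CPM, and erythroid markers at 554 and 2931 CPM. Their part in the results below was not tested.

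The members together made up 2.32% of the UMIs of control and 2.51% of the UMIs of cKO endothelial-like cells. In the 9 other classes with at least 50 cells in both libraries, this share lay between 0.0482% and 0.280%. With every cell thinned to 1000 UMIs, the median endothelial-like cell held a UMI of 13 members in both libraries, and without thinning of 26 in the control library and 28 in the cKO library. Of the 34 members, 29 were highest in endothelial-like cells in both libraries, 4 were highest in another class in both, and Plvap gave a different answer in each. These counts have no share of all genes beside them, so they describe the members only.

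The most endothelial of the members, 9 of 34, stood at least 10-fold over the next class in both libraries. They were Cldn5, the main claudin of brain endothelium, Cdh5, the adherens-junction cadherin, the transporters Slc7a5, Slco1a4 and Slc7a1, the efflux pumps Abcb1a and Abcg2, and the transcription factors Sox17 and Foxq1. The count of 9 of 34 likewise has no share of all genes beside it. Cldn5 stood at 4206 CPM in control and 4437 CPM in cKO endothelial-like cells. It stood at 12.4 and 12.7 CPM in oligodendrocyte-like cells, which should lack it. In smooth muscle-like cells Cldn5 stood at 2.38 CPM (1 UMI) in the control library and 361 CPM (137 UMIs) in the cKO library. All 34 members also had more than 3 UMIs in cKO barcodes of 1 to 100 UMIs, where they made up 0.426% of UMIs; the control matrix holds no such barcodes. How much of the level in other classes comes from free RNA was not tested.

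F11r, which encodes junctional adhesion molecule A, stood at 459 CPM in control and 426 CPM in cKO microglia-like cells. Its endothelial levels were 157 and 174 CPM, so microglia-like cells were higher in both libraries. Slco2b1, an organic anion transporter, showed the same order, with 506 and 436 CPM in microglia-like and 119 and 122 CPM in endothelial-like cells. Border macrophage-like cells, at 179 and 196 CPM, also stood above endothelial-like cells for Slco2b1. The organic anion transporter gene Slc22a8 stood at 447 CPM (365 to 542) and 467 CPM (395 to 548) in pericyte-like cells. Its endothelial levels were 381 CPM (364 to 398) in the control library and 348 CPM (336 to 361) in the cKO library, so the intervals overlapped in the control library and not in the cKO library. Foxf2, a forkhead factor that pericytes also use, stood at 143 and 135 CPM in pericyte-like cells against 125 and 121 CPM in endothelial-like cells, with overlapping intervals in both libraries.

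Other members were highest in endothelial-like cells but shared with a second class. Slco1c1, a thyroid hormone transporter, stood at 1729 and 1591 CPM in endothelial-like cells and 461 and 434 CPM in astrocyte-like cells. Mfsd2a, which carries lysophospholipid-bound omega-3 fatty acid and restrains vesicle transport, stood at 218 and 244 CPM in endothelial-like cells and 144 and 197 CPM in astrocyte-like cells. Slc3a2, the heavy chain that partners Slc7a5 and other light chains, stood at 503 and 612 CPM against 359 and 354 CPM in astrocyte-like cells. Slc2a1, the glucose transporter GLUT1, stood at 1525 and 1759 CPM in endothelial-like cells and was next highest in ependymal-like cells, at 517 and 371 CPM. Slc40a1, the iron exporter ferroportin, stood at 369 and 356 CPM, and its next class was microglia-like cells at 223 CPM in the control library and border macrophage-like cells at 245 CPM in the cKO library.

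**Figure D1:**
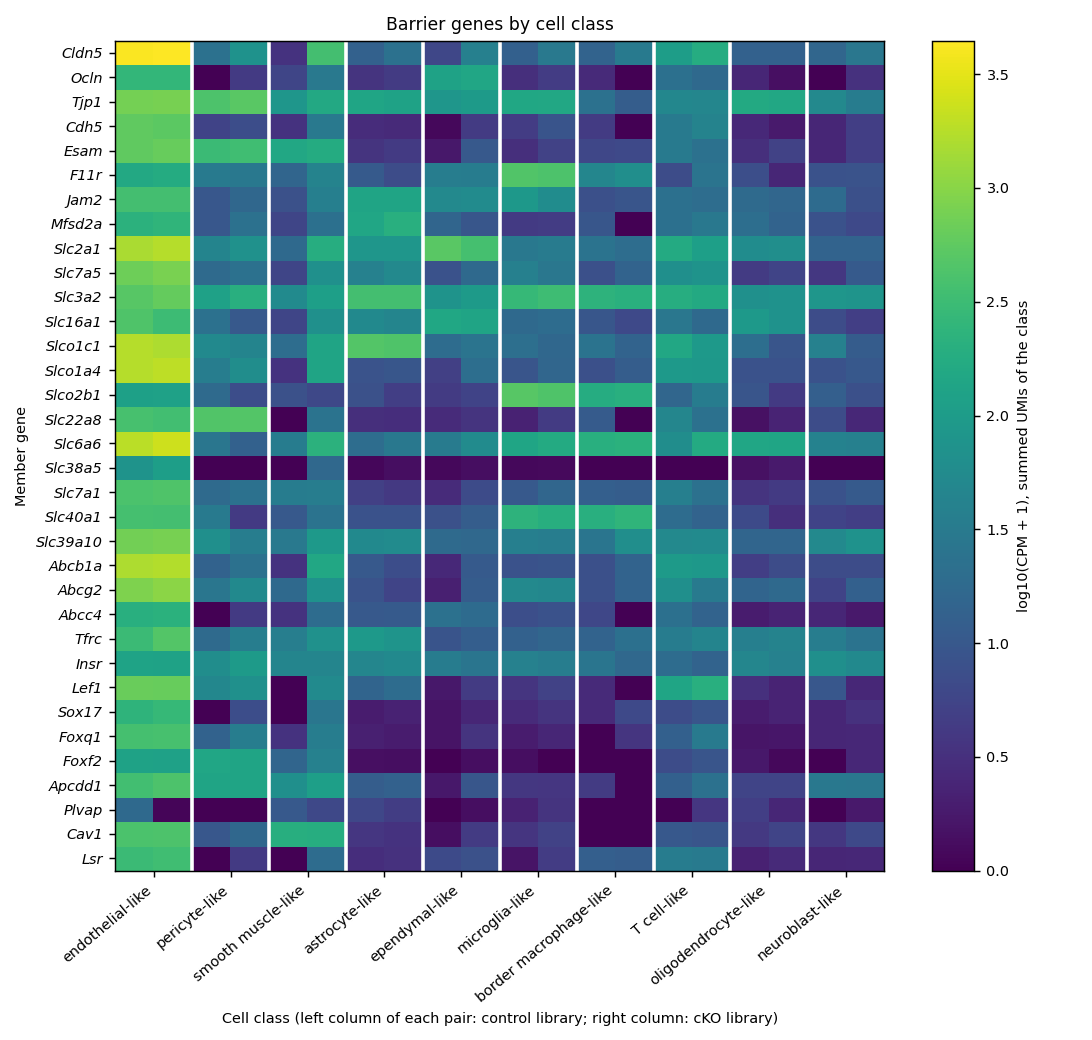
Colour gives log10(CPM + 1) of summed UMIs for each member (rows) in 10 cell classes (column pairs, control left and cKO right). The endothelial-like pair is brightest for most rows, while F11r and Slco2b1 are brighter in the microglia-like pair and Slc22a8 and Foxf2 in the pericyte-like pair.

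Within the endothelium, sub-clusters were named from markers that exclude the members. The capillary-like group held 390 control and 536 cKO cells, the arterial-like group 84 and 128 cells, and the venous-like group 40 and 105 cells. A further 174 control and 113 cKO cells lay in 3 sub-clusters with markers of microglia and oligodendrocytes, pericytes, or astrocytes, and entered only the totals. The capillary-like group joined 3 sub-clusters that the libraries filled differently: sub-cluster 0, led by Ttr and Nr4a1, held 270 control and 57 cKO cells, sub-cluster 1 held 79 and 244, and sub-cluster 2, led by interferon-induced genes, held 41 and 235. In each of the 3, the same 4 capillary markers passed: Rgcc, Cxcl12, Ivns1abp and Hmcn1. Other capillary markers did not. In control cells Car4 stood at 1102 CPM in capillary-like against 1727 CPM in venous-like cells, and Itih5 at 933 against 1629 CPM. Spock2 stood at 4210 CPM in capillary-like and 4144 CPM in arterial-like control cells. Median UMIs per cell were 5518.5 and 5957 in capillary-like, 9338 and 9327.5 in arterial-like, and 16502.5 and 18078 in venous-like cells. The venous-like sub-cluster also carried erythroid markers, summing to 1626 CPM in the control library and 10017 CPM in the cKO library.

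Nutrient carriers were lower at the arterial end of the tree in both libraries, while junction genes and efflux pumps were near level. At 1.5-fold or more in both libraries, with intervals excluding equality, 11 of 34 members were lower in arterial-like than in capillary-like cells, where 1.76% of the 6314 genes measured were. The 11 comprised 9 of the 14 solute carriers, the receptor gene Tfrc and the Wnt-responsive gene Apcdd1, and 0 of the 8 junction genes and 0 of the 3 efflux pumps. Slc38a5, counted among the 11, reached the minimum mean of 20 CPM only through its capillary-like level. It stood at 60.2 and 48.1 CPM there, against 0 and 2.15 CPM in arterial-like cells. A further 2 of 34, Slc6a6 and Sox17, were higher in arterial-like cells, against 3.55% of genes. The median log2 ratio of arterial-like over capillary-like cells was -0.22 in the control library and -0.23 in the cKO library for the members, and 0.04 and 0.03 for all genes.

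Slc16a1 (chr3:104638668-104658462, plus strand, mm10), the monocarboxylate transporter MCT1 that carries lactate and ketone bodies, stood at 458 CPM in control capillary-like cells and 123 CPM in control arterial-like cells. In the cKO library it stood at 376 and 78.2 CPM. The log2 ratios were -1.90 (-2.20 to -1.61) in the control library and -2.26 (-2.56 to -1.98) in the cKO library, the lowest of the members with UMIs in both groups apart from Slc38a5. Slc22a8 stood at 405 against 132 CPM in the control library and 377 against 159 CPM in the cKO library, with log2 ratios of -1.61 and -1.24. Slco2b1 had log2 ratios of -1.35 and -1.47. These 3 carriers were thus lower in arterial-like cells in both libraries, and none of their intervals reached the 1.5-fold line.

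The amino acid carriers formed a second set. Slc7a5, the light chain of the large neutral amino acid transporter LAT1, stood at 766 CPM in capillary-like and 308 CPM in arterial-like cells of the control library, and at 929 and 403 CPM in the cKO library. Its partner Slc3a2 stood at 549 and 317 CPM in the control library and 667 and 353 CPM in the cKO library, a smaller difference. Slc7a1, a carrier of cationic amino acids, had log2 ratios of -1.29 and -1.14. Slc38a5 (chrX:8271133-8280179, plus strand), a glutamine carrier, had 0 UMIs in the 84 control arterial-like cells, which allows up to 3.55 CPM (3 UMIs), and 3 UMIs in the 128 cKO arterial-like cells (2.15 CPM, 0.444 to 6.29). Its capillary-like levels were 60.2 and 48.1 CPM, at least 17.0-fold higher in the control library and with a log2 ratio of -4.48 (-6.77 to -2.91) for arterial-like over capillary-like cells in the cKO library.

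Metal handling followed the same order. Tfrc (chr16:32608920-32632794, plus strand), the transferrin receptor that brings iron in, stood at 317 CPM in capillary-like and 137 CPM in arterial-like control cells, and at 556 and 157 CPM in the cKO library. Slc40a1, which lets iron out, stood at 378 and 203 CPM in the control library and 375 and 195 CPM in the cKO library. Slc39a10, a zinc importer, had log2 ratios of -0.68 and -0.73. Apcdd1, a Wnt-induced inhibitor of Wnt signalling, had log2 ratios of -1.08 and -0.88.

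The members that were higher in arterial-like cells differed in kind. Slc6a6, the taurine transporter, stood at 1677 CPM in capillary-like and 2648 CPM in arterial-like control cells, and at 2103 and 3389 CPM in the cKO library. Its log2 ratios of 0.66 and 0.69 lay just past the 1.5-fold line, and with doublet calls kept the control value was 0.55, short of it. Sox17, a SOX factor that drives arterial identity, had log2 ratios of 0.80 (0.60 to 1.00) and 0.83 (0.68 to 0.98).

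The 8 junction and adhesion genes ranged in arterial-like over capillary-like log2 ratio from -0.24 (Ocln, occludin) to 0.44 (Cdh5) in the control library and from -0.30 to 0.42, at the same genes, in the cKO library. Cldn5 stood at 4410 CPM in capillary-like and 3908 CPM in arterial-like control cells and at 4623 and 4795 CPM in the cKO library, so its order differed between the libraries. The efflux pump genes Abcb1a (P-glycoprotein), Abcg2 (breast cancer resistance protein) and Abcc4 ranged from -0.32 to 0.06 in the control library and from -0.22 to 0.0037 in the cKO library. Slc2a1 stood at 1501 and 1526 CPM in capillary-like and arterial-like control cells and at 1708 and 1777 CPM in the cKO library. Glucose carrier mRNA was thus near level where monocarboxylate and amino acid carrier mRNA was not.

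**Figure D2:**
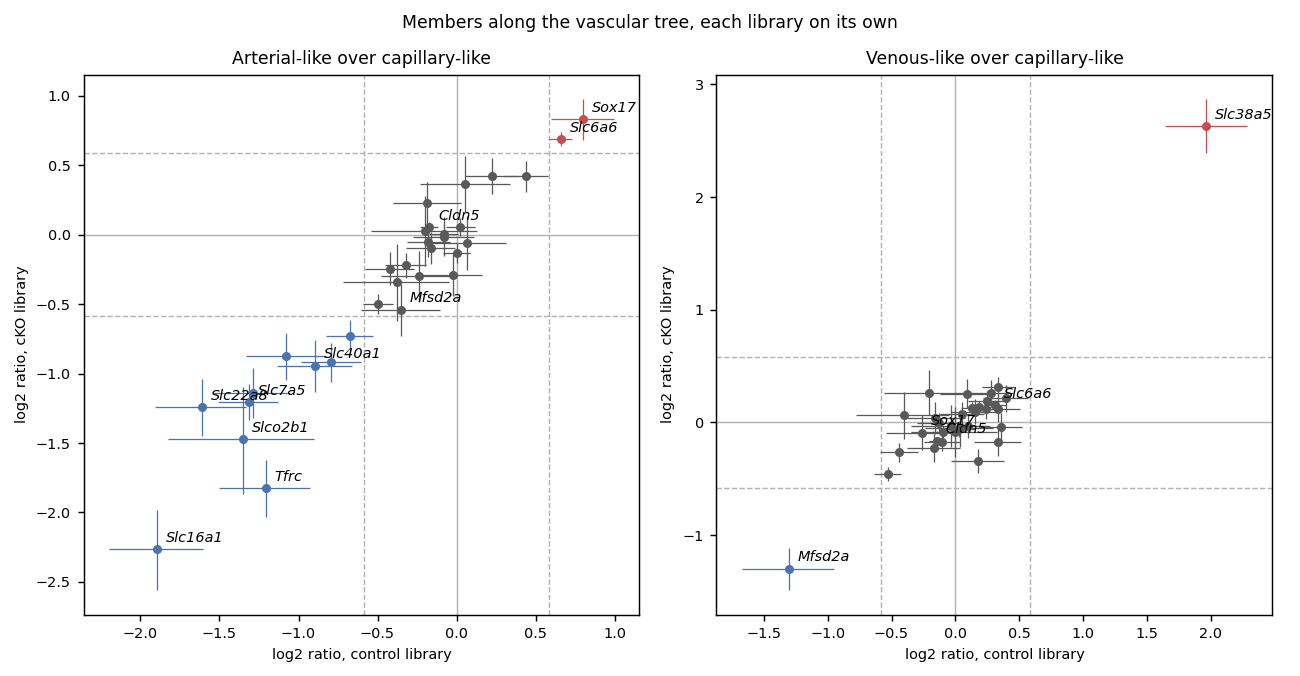
Log2 ratios of arterial-like (left) and venous-like (right) over capillary-like cells for the members with UMIs in both groups, control library on the horizontal and cKO library on the vertical axis. Whiskers are 95% counting intervals, dashed lines 1.5-fold, blue and red points are members past it in both libraries, and Slc38a5 (left, 0 control UMIs) and Plvap are not drawn. Slc16a1 lies lowest on the left at -1.90 and -2.26, and Slc38a5 and Mfsd2a lie at the 2 ends on the right.

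Venous-like and capillary-like cells were more alike. Of 33 members measured, Slc38a5 was higher in venous-like cells in both libraries, where 2.76% of genes were, and Mfsd2a was lower, where 1.60% of genes were. Slc38a5 stood at 235 CPM in venous-like control cells against 60.2 CPM in capillary-like cells, and at 298 against 48.1 CPM in the cKO library. Its log2 ratios were 1.96 (1.64 to 2.29) and 2.63 (2.40 to 2.87). Mfsd2a stood at 101 CPM in venous-like against 249 CPM in capillary-like control cells and at 128 against 314 CPM in the cKO library, with log2 ratios of -1.30 (-1.67 to -0.95) and -1.30 (-1.49 to -1.11). With cells thinned to 1000 UMIs the control value was -0.45 and the cKO value -1.68, and Mfsd2a was then not past the rule in both libraries. Slco1c1 came next, at -0.53 and -0.46.

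Against arterial-like cells, 10 of 34 members were higher in venous-like cells in both libraries, where 3.59% of genes were. These were the 11 members above without Slc39a10. Slc16a1 stood at 587 and 366 CPM in venous-like cells, with log2 ratios over arterial-like cells of 2.26 in the control library and 2.23 in the cKO library. Mfsd2a and Sox17 were lower in venous-like than arterial-like cells, against 4.27% of genes. Slc38a5 was at or under the 3-UMI level in arterial-like cells and had its highest level in venous-like cells in both libraries. It thus reached the minimum mean of 20 CPM in this comparison only through its venous-like level. The size of its arterial-like ratio in the cKO library rests on 3 UMIs: the log2 ratio over capillary-like cells was -4.48 as reported and -1.52 with cells thinned to 1000 UMIs. Mfsd2a was highest in capillary-like cells in both.

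**Figure D3:**
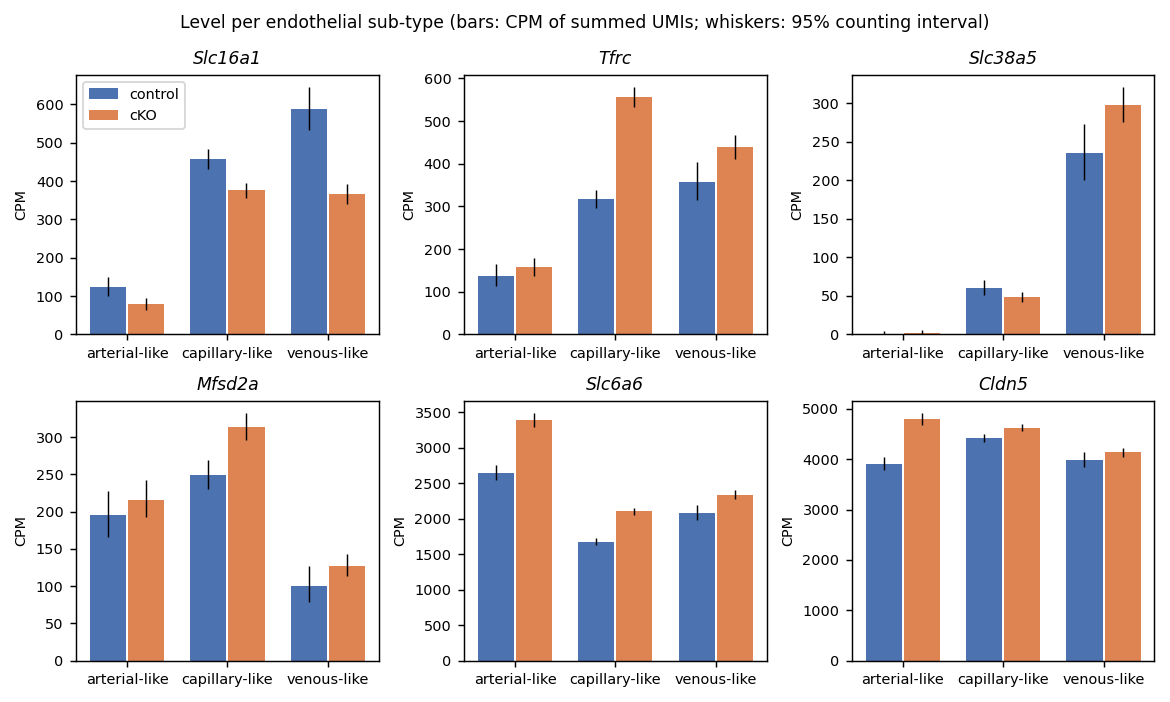
Bars give CPM of summed UMIs in arterial-like, capillary-like and venous-like cells for 6 members, control in blue and cKO in orange, with 95% counting intervals as whiskers. Slc16a1 and Tfrc are lowest in arterial-like cells, Slc38a5 is highest in venous-like cells at 235 and 298 CPM, and Cldn5 varies little.

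Between the libraries, most members were close to level in endothelial-like cells, and transferrin receptor and the monocarboxylate transporter stood furthest apart in opposite directions. Of the 33 members measured at a mean of 20 CPM or more, 2 were higher in the cKO library by 1.5-fold or more, Tfrc and Slc38a5, where 1.03% of the 6298 genes measured were. No member was lower by that fold (0 of 33), where 1.40% of genes were. The median log2 ratio of cKO over control was 0.08 for the members and 0.02 for all genes. Of the 33, 25 lay within 0.25 of equality, as did 82.2% of all genes. The ratio was positive for 25 members and negative for 8. No share of all genes by sign stands beside this count, and the median of all genes was itself above 0, at 0.02.

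Tfrc stood at 304 CPM (290 to 320) in control and 463 CPM (449 to 477) in cKO endothelial-like cells, a log2 ratio of 0.60 (0.52 to 0.69). In capillary-like cells the ratio was 0.81 (0.70 to 0.93), in arterial-like cells 0.20 (-0.14 to 0.53) and in venous-like cells 0.29 (0.09 to 0.50). Within the 3 capillary-like sub-clusters it was 0.49, 1.11 and 0.75, and every interval lay above 0. Erythroid precursors also express Tfrc, and erythroid markers summed to 554 CPM in control and 2931 CPM in cKO endothelial-like cells. The sums were 329 and 177 CPM in capillary-like, 326 and 1541 CPM in arterial-like and 1626 and 10017 CPM in venous-like cells. Their part in the Tfrc ratio was not tested. The total ratio sat close to the 1.5-fold line: it was 0.57 with a mitochondrial limit of 5%, 0.57 with mitochondrial, rRNA-like, haemoglobin and Ttr UMIs left out of the total, and 0.50 with unnamed clusters that carry endothelial markers added.

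Slc16a1 stood at 441 CPM in control and 319 CPM in cKO endothelial-like cells, a log2 ratio of -0.47 (-0.55 to -0.39), the lowest of the measured members and short of 1.5-fold. It was lower in each sub-type, by -0.29 (-0.40 to -0.18) in capillary-like, -0.65 (-1.05 to -0.25) in arterial-like and -0.68 (-0.85 to -0.51) in venous-like cells. Within the capillary-like sub-clusters, whose numbers differ between the libraries, it was -0.65 (-0.99 to -0.33), -0.67 (-0.92 to -0.40) and -0.52 (-0.73 to -0.30). Each of these 3 values lay below the pooled capillary-like value. Control cells were mostly of sub-cluster 0, in which Slc16a1 stood at 417 CPM, against 562 and 572 CPM in control cells of sub-clusters 1 and 2. With capillary-like cells thinned to 1000 UMIs the pooled ratio was -0.0044. Of the 32 members measured in all 3 sub-types, Slc16a1 was the 1 whose interval lay below 0 in each, against 1.21% of genes. Where the UMI floor of the cKO library was set relative to its depth, 0 members met this rule.

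Slc38a5 stood at 73.0 CPM in control and 109.8 CPM in cKO endothelial-like cells, a log2 ratio of 0.59 (0.42 to 0.76). In capillary-like cells the ratio had the other sign, at -0.32 (-0.63 to -0.01), and in venous-like cells it was 0.34 (0.10 to 0.59). Within capillary-like sub-clusters 0, 1 and 2 it was -1.26 (-2.51 to -0.23), 0.26 (-0.58 to 1.18) and -0.66 (-1.25 to -0.03). The pooled capillary-like ratio ran from -0.62 to 0.22 over the alternative settings. Venous-like cells, where the gene is highest, numbered 40 of 688 control and 105 of 882 cKO endothelial-like cells. With the control mix of sub-types given to both libraries, the ratio was -0.091. That setting changes the capillary-like and arterial-like shares as well, and the part of any 1 share was not tested. It also weights the 3 sub-types by cell number, not by UMIs. The 174 control and 113 cKO cells of the other sub-clusters, where Slc38a5 stood at 52.5 and 80.7 CPM, are left out of it. The part of these changes was not tested either.

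Counted within sub-types, 1 of 33 members (Tfrc) was higher by 1.5-fold or more in cKO capillary-like cells, against 1.6% of genes, and 0 were lower, against 1.62%. In arterial-like cells 0 of 33 were higher (4.52% of genes) and 2, Slc16a1 and Plvap, were lower (5.85%). Plvap passed the minimum level only through the control library, where 84 of its 86 arterial-like UMIs lay in 4 cells. In venous-like cells 0 of 33 were higher (3.72%) and 1, Slc16a1, was lower (5.5%). These shares are near or below the background, and the capillary-like ones rest on sub-clusters 0, 1 and 2 in unlike proportions.

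Smaller differences recurred across sub-types. For 6 members, Slc2a1, Slc7a5, Slco1a4, Slc6a6, Abcg2 and Sox17, the interval lay above 0 in each of the 3 sub-types, with ratios between 0.14 and 0.39. Of the members, 32 were measured in all 3 sub-types, and 1.66% of the 5770 genes measured there met this rule. The count was between 1 and 7 members over the 10 alternatives that reclustered the cells, with 1 (Abcg2) at a mitochondrial limit of 5%. The 3 capillary-like sub-clusters were filled differently by the libraries. Within them the Abcg2 interval lay above 0 in each, and the Sox17 interval included 0 in each. Slco1a4 had ratios of -0.0065, -0.028 and 0.14 there, against 0.17 in capillary-like cells pooled. The Slc2a1 interval included 0 in sub-cluster 2, that of Slc7a5 in sub-clusters 0 and 2, and that of Slc6a6 in sub-cluster 0. Slc6a6 stood at 1839 CPM in control and 2357 CPM in cKO endothelial-like cells, a log2 ratio of 0.36 (0.32 to 0.39). In capillary-like cells its ratio of 0.33 was lost at a Leiden resolution of 2.0, where it was -0.0017. Slc2a1 stood at 1525 and 1759 CPM, a ratio of 0.21 (0.17 to 0.25). Abcg2 had a ratio of 0.25 and the other efflux pumps 0.09 (Abcb1a) and 0.07 (Abcc4). The 8 junction genes ranged from -0.07 (Cdh5) to 0.16 (Esam), with 7 of 8 above 0, a count with no share of all genes beside it. Cldn5 had a ratio of 0.08 (0.05 to 0.10), Ocln 0.02 (-0.08 to 0.12) and Tjp1, the scaffold ZO-1, 0.03 (-0.02 to 0.09). Jam2, a junctional adhesion molecule, had a ratio of 0.03, and Lsr, which seals contacts of 3 cells, had 0.13. The 10 solute carriers not yet given ranged from -0.13 (-0.21 to -0.05, Slc22a8) to 0.28 (0.22 to 0.35, Slc3a2), and Slco1c1 had -0.12 (-0.16 to -0.08). Mfsd2a, within this range at 0.16 (0.05 to 0.26), had 0.33 (0.20 to 0.47) in capillary-like cells. Its ratio was 0.15 (-0.13 to 0.43) in arterial-like and 0.34 (-0.03 to 0.73) in venous-like cells. Insr, the insulin receptor, stood at 129.5 and 124 CPM, a ratio of -0.06 (-0.20 to 0.08), and Cav1 at 413 and 421 CPM, a ratio of 0.03. Among the barrier transcription factors, Lef1 had a ratio of -0.03, Foxf2 -0.04, Foxq1 0.08 and Sox17 0.25 (0.16 to 0.36). The Wnt-responsive gene Apcdd1 had 0.26 (0.18 to 0.34). Over all endothelial-like cells the intervals of the 8 junction genes exclude a 1.5-fold difference between these 2 libraries, as far as counting error goes. In arterial-like cells those of F11r, at 0.43 (0.13 to 0.73), and Lsr, at 0.42 (0.19 to 0.65), include it.

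**Figure D4:**
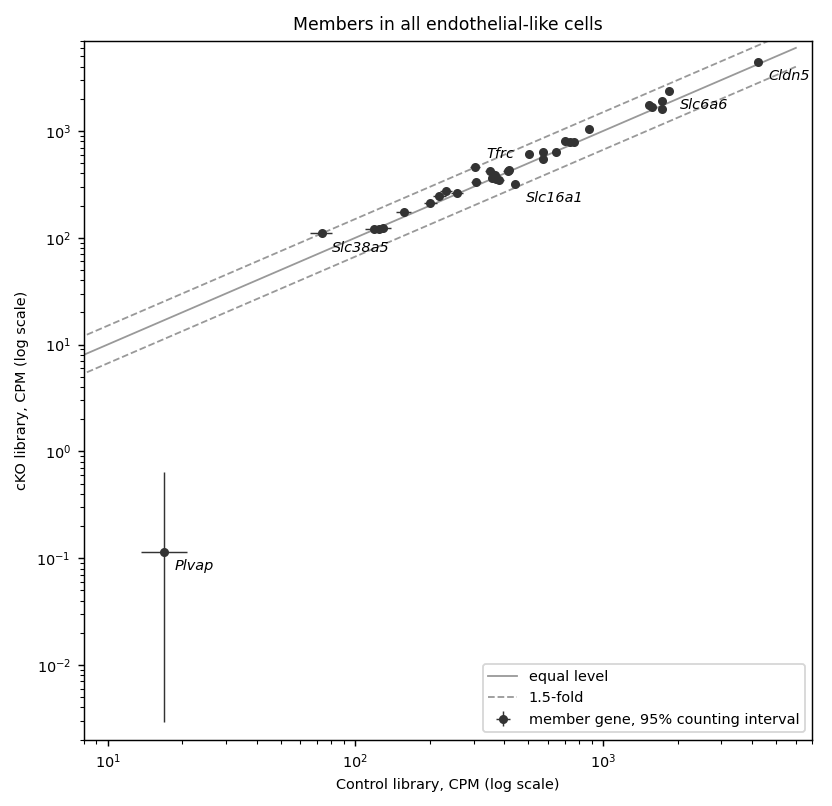
CPM of the 34 members in all endothelial-like cells, control library on the horizontal and cKO library on the vertical axis, both log scales, with 95% counting intervals. Dashed lines mark 1.5-fold; Tfrc and Slc38a5 lie at the upper line, Slc16a1 near the lower one, and Plvap (16.9 and 0.114 CPM) apart from the rest.

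**Figure D5:**
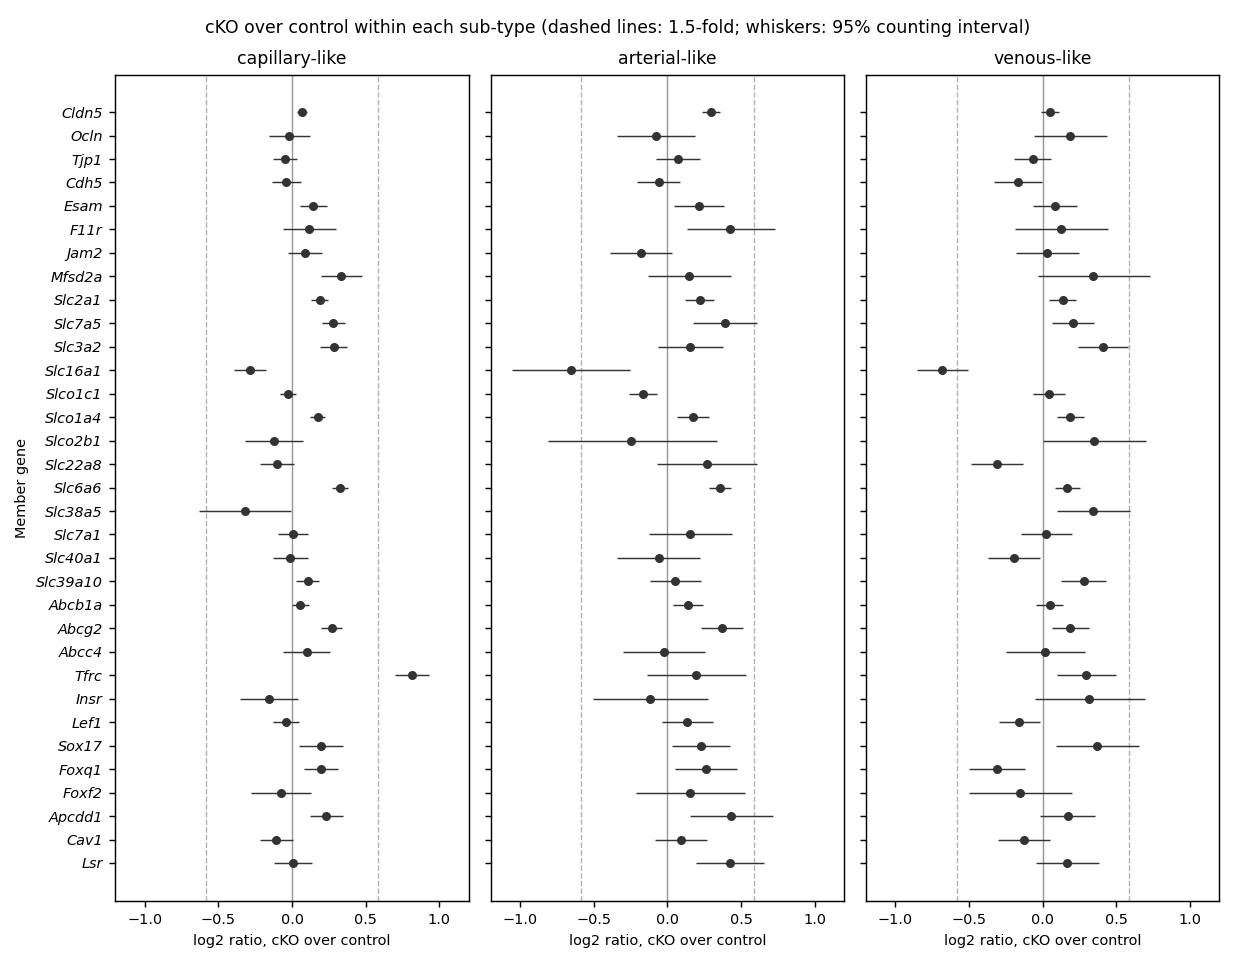
Log2 ratio of cKO over control for the members with at least 30 UMIs (Plvap not drawn) within capillary-like, arterial-like and venous-like cells, with 95% counting intervals and dashed lines at 1.5-fold. Slc16a1 lies left of 0 in all 3 panels, and Tfrc lies furthest right in capillary-like cells at 0.81.

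Plvap encodes the protein of the diaphragms that close the pores of leaky, fenestrated vessels, which barrier endothelium lacks. It had 89 UMIs in control endothelial-like cells (16.9 CPM) and 1 UMI in cKO cells (0.114 CPM), a log2 ratio of -7.21 (-12.53 to -4.69), below the 20 CPM minimum for a call. Of the 89 UMIs, 84 lay in 4 control cells of the arterial-like sub-cluster. These 4 cells also held fenestrated-vessel genes: Plpp1 had 84 UMIs, Plpp3 102, Gpihbp1 15 and Esm1 10, against 57, 46, 0 and 0 UMIs in the 78 other arterial-like control cells without a Plvap UMI. The arterial genes Bmx, Gkn3 and Hey1 had 0 UMIs in the 4 cells. Sema3g stood at 37.6 CPM in them against 279 CPM in the 78 others, Stmn2 at 37.6 against 431 CPM and Mgp at 18.8 against 465 CPM. Other arterial markers did not share this order. Efnb2 stood at 263 CPM (144 to 441) against 126 CPM (102 to 154), with overlapping intervals. Vegfc stood at 75.1 CPM (20.5 to 192) against 107 CPM and Eln at 56.3 against 57.9 CPM. The capillary-like cells had 0 Plvap UMIs in both libraries.

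Several barrier members were lower in these 4 cells, which were picked by their Plvap UMIs, and others were not, so the values are a description. Cldn5 stood at 620 CPM (427 to 870) in them and 4201 CPM in the 78 other cells, and Slc2a1 at 225 against 1644 CPM. Slco1c1 stood at 319 against 1940 CPM, Abcb1a at 394 against 1592 CPM, Mfsd2a at 37.6 against 209.7 CPM and the Wnt-responsive factor gene Lef1 at 75.1 against 530.1 CPM. Other members had intervals that overlapped those of the 78 cells: Cdh5 stood at 789 against 721 CPM, Esam at 545 against 509.5 CPM and Cav1, the main caveola protein, at 507 against 476 CPM. Tfrc stood at 244 CPM (130 to 417) against 133 CPM, Insr at 188 CPM (90.0 to 345) against 105.5 CPM and F11r at 207 CPM (103 to 370) against 157 CPM. Jam2 stood at 432 against 358 CPM, Slc3a2 at 338 against 319 CPM and Slc16a1 at 131 against 123.5 CPM. Choroid plexus vessels are fenestrated, and choroid plexus-like cells numbered 358 in the control library and 4 in the cKO library; where the 4 Plvap cells came from was not tested.

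Genes of the same pathways outside the 34 gave the following counts in endothelial-like cells. Of 16 other junction genes 8 were measured, of 24 other transporters and receptors 13, of 18 Wnt and norrin signalling genes 18, and of 8 caveola and transcytosis genes 8, and 0 of these were past 1.5-fold between the libraries in either direction. Their median log2 ratios were 0.03, -0.07, 0.12 and 0.01. In the Wnt list the largest ratios were those of the feedback inhibitors Notum (52.5 and 72.8 CPM, 0.47, 0.27 to 0.68) and Nkd1 (163 and 225 CPM, 0.47, 0.35 to 0.58). Axin2, another Wnt feedback gene, had a ratio of 0.28 (0.12 to 0.45), and Sox18, an endothelial SOX factor, had 0.40. The receptor genes Fzd4, Lrp5 and Lrp6 had ratios of 0.021, -0.0026 and 0.011. Of 8 barrier-inducing ligand genes 3 were measured in endothelial-like cells, and 0 were past 1.5-fold. The ligand genes Wnt7a, Wnt7b and Ndp stood at 37.2, 75.6 and 57.2 CPM in control and 28.1, 64.9 and 60.7 CPM in cKO astrocyte-like cells, and at under 2 CPM in endothelial-like cells of both libraries.

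The same lists followed the order along the tree in part. Of 12 other transporters and receptors measured, 5 were lower in arterial-like than capillary-like cells in both libraries: Slc38a3, Slc39a8, Lrp8, Igf1r and Lepr. Slc38a3, a glutamine carrier, stood at 211 and 105 CPM in capillary-like and arterial-like control cells and at 223 and 108 CPM in the cKO library. Of 17 Wnt genes 2 were lower, Nkd1 and Notum, and of 8 other junction genes 0 were. Of 8 caveola genes 3 were higher in arterial-like cells, Cavin3, Ehd2 and Ehd4, and Ehd2 stood at 239 against 96.9 CPM in the control library and 227 against 84.0 CPM in the cKO library.

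Other lists moved beside the members in the same cells. Of 12 interferon-induced genes 12 were higher in cKO endothelial-like cells by 1.5-fold or more, with a median log2 ratio of 1.07. Of 6 endothelial activation genes measured 6 were higher, also with a median of 1.07. Of 15 dissociation and immediate early genes 1 was higher and 3 were lower, with a median of -0.44. These 3 lists were drawn up because earlier results of these data showed such genes moving. Within sub-types the interferon-induced genes that passed numbered 12 of 12 in capillary-like, 11 of 12 in arterial-like and 9 of 12 in venous-like cells. For the activation genes the counts were 2 of 2, 1 of 3 and 4 of 7, and 6 of 7 were higher in venous-like than capillary-like cells in both libraries. Vcam1, Lrg1 and Il1r1, counted among these 6, are also markers that named the venous-like sub-cluster, so their order was set by the naming. Of the dissociation genes 2 of 15 were higher and 3 lower in capillary-like, 1 and 6 of 15 in arterial-like, and 1 and 9 of 16 in venous-like cells. Their part in the ratios of Tfrc, Slc16a1 and the other members was not tested.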

How the data were processed

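The values are raw UMI counts, deposited by the authors as 1 matrix of genes by barcodes per library. Cell Ranger 7.1.0 and build mm10 are named in the submitters' processing notes. The annotation release and the use of intronic reads were not found in them. The control matrix was already filtered (10942 barcodes, at least 500 UMIs each), and the cKO matrix was not (2377349 barcodes). Barcodes with at least 1000 UMIs, at least 500 genes and at most 10% mitochondrial UMIs were kept. Scrublet calls (5.24% of control and 3.56% of cKO cells, scanpy 1.11.5) were removed. Both libraries were clustered jointly after log transformation of counts per 10000, using 2000 variable genes other than the members, 30 principal components, 15 neighbours and Leiden resolution 1.0 (leidenalg 0.10.2). Clusters were named "-like" from marker sets without the members. A sub-cluster was called capillary-like when at least 3 capillary markers were 1.5-fold over the arterial-like and venous-like mean, a rule set after the data were seen.

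Summed UMIs of each class were scaled to CPM within each library, with exact Poisson intervals. Log2 ratios carry exact conditional (Clopper-Pearson) intervals. A call was 1.5-fold at a mean of 20 CPM or more. Members were described singly when past that fold, among the 3 highest or lowest ratios, ordered along the tree in both libraries, or highest in another class. The ratio script was checked on simulated counts. Coordinates are from GENCODE vM21 and RefSeq tables. The members and lists were chosen with earlier results of these data known.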

Additional observations from a re-analysis of the deposited data

Results flagged for a closer look

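Some members had cKO over control ratios of opposite sign in different sub-types, with both counting intervals excluding 0. For Slc38a5 the ratio was 0.34 in venous-like and -0.32 in capillary-like cells, a difference of 0.67. The capillary-like value ran from -0.62 to 0.22 over the alternative settings, so its sign was not stable. For Foxq1, a forkhead factor of barrier endothelium, the ratio was 0.26 in arterial-like (339 and 407 CPM) and -0.31 in venous-like cells (452 and 364 CPM), a difference of 0.57. With 1 library per group neither difference was tested.

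Signal also lay outside the cells compared. Unnamed clusters that carry endothelial markers together with those of pericytes, erythroid cells or B cells held 258 control and 444 cKO cells, and the members made up 1.81% and 1.95% of their UMIs. In cKO barcodes of 1 to 100 UMIs the members made up 0.426% of UMIs (16672 UMIs). The control matrix holds no barcodes of that size, so no control value exists.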

How the results depend on the processing

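No paired analysis was possible because each group is 1 library, and leaving out a replicate was not possible for the same reason. The median ratio of the members stayed between 0.05 and 0.12 over the 21 alternatives, and 29 members were highest in endothelial-like cells under the 10 alternatives that reclustered the cells. The count of members lower in arterial-like than capillary-like cells was 10 or 11 in all 12 alternatives run. The count higher in the cKO library, 2 as reported, was 1 with a floor of 2000 UMIs, a relative floor for the cKO library, a mitochondrial limit of 20%, doublet calls kept, median-of-ratios scaling, equal weight per cell, thinning, or the control sub-type mix. It was also 1 without sub-clusters with markers of another class and without the 4 Plvap cells, both chosen after seeing the data. It was 0 with a mitochondrial limit of 5%, with the reduced total, or with unnamed clusters added. The count lower in the cKO library was 1 (Plvap) with no minimum level. The Slc38a5 ratio was -0.091 with the control sub-type mix. The count higher in arterial-like cells was 1 with doublet calls kept. The count lower in venous-like cells was 2 with the relative floor or the 5% limit, which added Slco1c1, and 0 when thinned. Causes were not tested. Of the ratios along the tree that passed 1.5-fold, 343 of 348 alternative values still did.

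Median-of-ratios scaling shifted all ratios by 0.02. Depth limits Slc38a5 in arterial-like cells, and the smaller venous-like and pericyte-like groups. Both libraries come from separate hosts, so host, dissociation and sequencing run cannot be told apart from genotype.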
